A study of Homo sapiens with 6 samples.

Results

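The genes described here are 6 long noncoding RNAs, *MALAT1*, *NEAT1*, *TUG1*, *KCNQ1OT1*, *MEG3* and *DANCR*, chosen by name from a table of 15917 genes measured in MDA-MB-231 cells, an established mesenchymal line of triple-negative breast cancer. By symbol 4 of the 6 were found. A match by Ensembl identifier gave 5, because *DANCR* is listed under its older symbol *KIAA0114* (ENSG00000226950). *MEG3* (ENSG00000214548) was found by neither route and its level was not analysed here.

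The study asked how RBMS3, an RNA-binding protein, affects the stability of its target transcripts, and sequenced total RNA from 6 libraries in 3 groups of 2 biological replicates. The control group, shCTRL, has the genotype WT in the labels and carries a control hairpin. The groups shRBMS3-B3 and shRBMS3-C3, given as RBMS3 KD1 and RBMS3 KD2, each carry 1 of 2 hairpins against *RBMS3*. The hairpins were delivered by lentivirus into luciferase-labelled cells, so all groups share the luciferase and a hairpin vector. The table analysed holds, for each gene, 1 mean normalized count over libraries beside the authors' own comparison of knockdown with control cells. It does not split the values by library. The mean is the level used below. It carries no standard deviation, the depth of the libraries is unknown, and no test, no spread between replicates and no difference between knockdown and control cells can be given from it. Which libraries entered the mean is not given in the sources used here. A legend in the paper describes this comparison as 2 replicates against 2, whereas the series has 6 libraries, so the mean may cover only some of them. The levels therefore describe where these RNAs stood in this experiment, with control and knockdown cells not told apart.

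Long noncoding RNAs (lncRNAs) act as RNA, not as templates for protein. *MALAT1* collects in nuclear speckles, bodies rich in splicing factors, and *NEAT1* is the scaffold of paraspeckles, which form beside them. *KCNQ1OT1* and *MEG3* come from imprinted domains, where only the copy from one parent is transcribed, while *TUG1* and *DANCR* are spliced transcripts studied widely in cancer.

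*MALAT1* and *NEAT1* are neighbours on chromosome 11, both on the plus strand and 52099 bases apart in GRCh38. Neither ends in an ordinary poly(A) tail when full-length. RNase P cuts each transcript before a tRNA-like small RNA. The new 3′ end folds U-rich stretches and an A-rich tail into a triple helix that protects it. The last 100 bases before the cut are shown because they hold this triple-helix end and can be compared between the pair. Capitals mark runs of at least 10 bases found in both, which cover 27 of the 100 bases of each. The *MALAT1* stretch is chr11:65506017-65506116 and the *NEAT1* stretch chr11:65445441-65445540, on the plus strand and exonic in both genes.
MALAT1 3′ end: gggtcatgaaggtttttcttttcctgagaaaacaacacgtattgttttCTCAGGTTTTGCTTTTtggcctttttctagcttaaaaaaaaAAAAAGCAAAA
NEAT1 3′ end: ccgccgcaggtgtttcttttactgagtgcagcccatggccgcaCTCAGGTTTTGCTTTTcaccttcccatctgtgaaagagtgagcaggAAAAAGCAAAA

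The shared capitals are a U-rich run, written with T as DNA, and the A-rich tail at the very end. Another U-rich stretch nearer the start of each sequence shares fewer than 10 bases and stays in lower case. The capitals thus do not mark the whole helix. Over all 100 bases the A+U content was 68% in *MALAT1* and 50% in *NEAT1*. The small RNAs that follow had no run of 10 shared bases. That of *MALAT1* (chr11:65506117-65506173, 57 bases) had 38.6% A+U and that of *NEAT1* (chr11:65445541-65445598, 58 bases) 27.6%.
MALAT1 small RNA: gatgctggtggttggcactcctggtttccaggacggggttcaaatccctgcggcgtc
NEAT1 small RNA: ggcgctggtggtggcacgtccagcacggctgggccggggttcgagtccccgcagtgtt

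In the annotation (GENCODE release 44) the 22743-base canonical transcript of *NEAT1* stops at the cut. The canonical transcript of *MALAT1*, a single exon of 10434 bases, runs on through the small RNA, with 8477 bases before it and 1900 after. The length used for *MALAT1* thus includes sequence that the processed RNA lacks.

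*MALAT1* (ENSG00000251562, chr11:65497640-65508073, plus strand) had the highest mean normalized count of the 5 genes, 40381. These counts, and the ranks and ratios of counts, are not corrected for transcript length, which is taken up after them. It ranked 41 of all 15917 genes and 3 of the 1344 listed lncRNA genes. Its level was 699 times the median of the lncRNA genes, which was 57.8, and it made up 7.60% of their summed level. The sum itself was small, as lncRNA genes took 2.41% of the total over all listed genes, and the 5 genes described here took 0.227%.

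*NEAT1* (ENSG00000245532, chr11:65422774-65445540, plus strand) had a mean normalized count of 6084, rank 472 of all genes and 5 of the lncRNA genes. The count of *MALAT1* was 6.64 times that of *NEAT1*. Only 2 lncRNA genes exceeded *MALAT1*, both named here after their values were seen. One was *MIR663AHG*, listed as *RP3-410C9.1*, with 41.1% of the lncRNA total, and the other *LLNLF-96A1.1* with 11.5%. Between *MALAT1* and *NEAT1* stood *CH507-513H4.6*, with a mean normalized count of 7084. Whether the reads counted for these other genes came from them was not tested. The ranks and shares among lncRNA genes rest on those counts.

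*TUG1* (ENSG00000253352, chr22:30969245-30979395, plus strand) had a mean normalized count of 1618, rank 2539. GENCODE release 44 types *TUG1* as protein-coding, so it was not counted among the lncRNA genes. Set against their levels, it would stand above 98.7% of them. *KCNQ1OT1* (ENSG00000269821, chr11:2597308-2700003, minus strand), the antisense transcript of the *KCNQ1* imprinted domain, was close to it at 1351, rank 3072 of all genes and 24 of the lncRNA genes. The ratio of the 2 levels was 1.20. Without a spread between libraries the order of these neighbours is not settled.

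*DANCR* (ENSG00000226950, chr4:52712325-52723623, plus strand) was the lowest at 492, rank 6812 of all genes and 73 of the lncRNA genes. It stood above 94.6% of the lncRNA genes but above only 57.2% of all genes, so the word abundant fits it only among noncoding RNAs. *MALAT1* had 82.1 times its count and *TUG1* 3.29 times. Whether any of these RNAs was nuclear was not measured, since RNA came from whole cells.

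**Figure D1:**
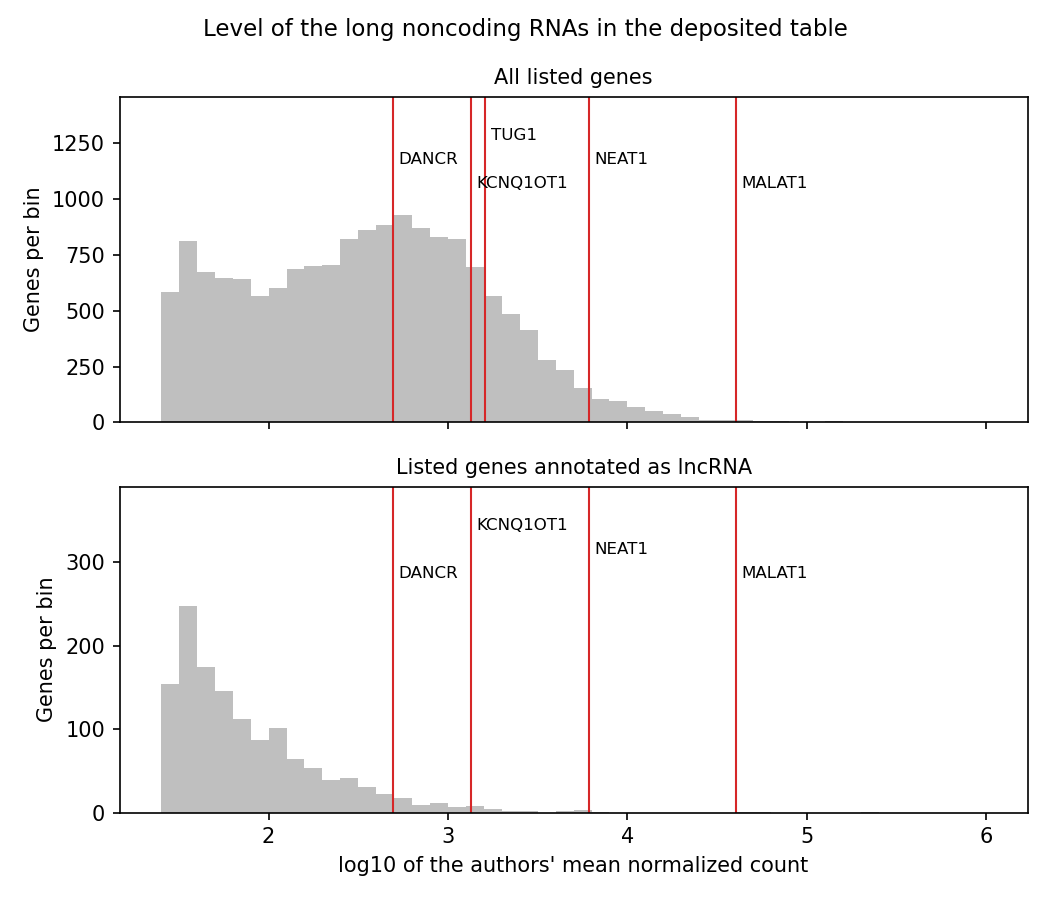
Number of genes (vertical axis) by log10 of the authors' mean normalized count (horizontal axis), for all 15917 listed genes above and for the 1344 listed lncRNA genes below, with red lines at the genes described. MALAT1 lies in the far right tail of both distributions, DANCR near the middle of the upper one and to the right of most lncRNA genes in the lower one. TUG1 is drawn only above because its annotated type is protein-coding.

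A count grows with transcript length, so levels were compared between genes per kilobase of transcript. Over the canonical transcripts the order was *MALAT1* with 3870 mean normalized counts per kilobase, *KCNQ1OT1* with 1990, *NEAT1* with 267, *TUG1* with 216 and *DANCR* with 124. The median over listed lncRNA genes was 40.3 and that over listed protein-coding genes 152. *MALAT1* stood above 97.4% of all listed genes on this scale, *NEAT1* above 66.8%, *TUG1* above 61.8% and *DANCR* above 47.5%.

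The place of *KCNQ1OT1* depended on which transcript gave the length. Its canonical transcript has 4 exons and only 679 bases, whereas the unspliced form, its longest annotated transcript, has 91667 bases. Over the long transcript the level of *KCNQ1OT1* was 14.7 per kilobase, 135 times less than over the short one. Over canonical transcripts the gene stood above 94.7% of all listed genes. With every listed gene taken over its longest transcript, it stood above 8.68% and was the last of the 5 genes. The unspliced form is the one known from work on imprinting. Which form the reads came from cannot be told from a mean per gene.

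*NEAT1* has the same ambiguity to a lesser degree, since it is made as a short polyadenylated and a long paraspeckle-forming isoform with a common start. Over the longest annotated transcript under 5 kilobases, 3524 bases, its level was 1726 per kilobase. *MALAT1* over the 8477 bases before its small RNA reached 4764 per kilobase. The ratio of *MALAT1* to *NEAT1* per kilobase was 14.5 over canonical transcripts and 2.76 over these shorter lengths, so *MALAT1* was the higher under both choices. *DANCR*, with 14 annotated transcripts, had 81.1 per kilobase over its longest transcript of 6065 bases and 48.3 over the union of its exons, and *TUG1* 159 over the union of its exons.

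**Figure D2:**
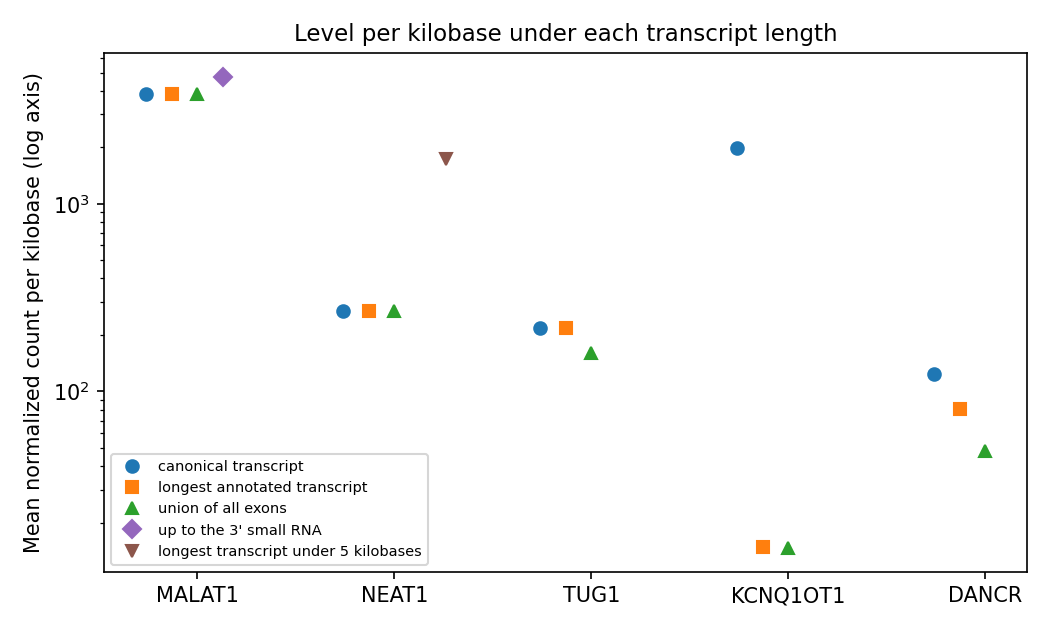
Mean normalized count per kilobase on a log axis (vertical) for each gene (horizontal), with one symbol for each way of taking the transcript length. The symbols of MALAT1 lie close together at the top, while those of KCNQ1OT1 run from 1990 over the canonical transcript to 14.7 over the longest one.

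RBMS3 is linked in the study to an A/U-rich element, the AUA element. The form searched here has 7 bases: A, G or T, then A or T, then ATA, then A or T, and last A. It was counted over the whole length of annotated transcripts, in the sense strand, with overlapping matches counted separately. The paper reports the element in 3′ untranslated regions, so counts over whole transcripts are not a like measure. A match is only a match of letters and not a site of binding. Among canonical transcripts of listed genes 78.6% held at least 1 match, 76.8% of lncRNA genes and 87.5% of protein-coding genes, so holding a match sets no gene apart. The median over listed lncRNA genes was 1.20 matches per kilobase at 51.6% A+U.

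All 5 genes had more matches per kilobase than that median, and all were between the 53.6th and the 66.6th percentile of the lncRNA genes. *NEAT1* had 44 matches, or 1.93 per kilobase, *MALAT1* 17 or 1.63, *DANCR* 6 or 1.52, *KCNQ1OT1* 1 or 1.47 over its short canonical transcript, and *TUG1* 10 or 1.34. The A+U content was 58.0% in *MALAT1*, 56.9% in *TUG1*, 55.9% in *NEAT1*, 52.4% in *DANCR* and 44.3% in the canonical *KCNQ1OT1*. The order by A+U content was not the order by matches, as *TUG1* was A/U-rich with the fewest matches per kilobase of the 5. The longest transcripts of *KCNQ1OT1*, *DANCR* and *MEG3* held more per kilobase than their canonical ones. No median over longest transcripts was computed to set beside them. The unspliced *KCNQ1OT1* had 284 matches, 3.10 per kilobase at 56.3% A+U, and the longest *DANCR* transcript 19 matches or 3.13 per kilobase. The canonical *MEG3* transcript, 632 bases long, held 0 matches, and its longest transcript of 12998 bases held 43, or 3.31 per kilobase.

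The matches were not spread alike along the transcripts. The 60-base windows with the most matches are shown for 3 genes because they show what the pattern looks like in each, with matches in capitals. The windows are exonic, at chr11:65499899-65499958 (plus strand) in *MALAT1*, chr11:65437180-65437239 (plus) in *NEAT1* and chr4:52718030-52718089 (plus) in the longest *DANCR* transcript.
MALAT1 window: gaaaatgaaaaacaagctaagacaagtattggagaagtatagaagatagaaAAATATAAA
NEAT1 window: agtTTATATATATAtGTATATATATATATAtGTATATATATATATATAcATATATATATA
DANCR window: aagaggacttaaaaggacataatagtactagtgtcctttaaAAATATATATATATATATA

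The *NEAT1* window was almost entirely a TA repeat, with 93.3% A+U, and held 17 of the 44 matches of the gene. The repeat ran on past the window. Counted as matches whose starts lie at most 10 bases apart, it held 20 of the 44. Outside it *NEAT1* had 24 matches, 1.06 per kilobase. The lncRNA median of 1.20 is not a like measure for that value, as no repeats were taken out of the other genes. The window of *DANCR* ended in a shorter TA repeat and held 7 matches. Outside that repeat the longest *DANCR* transcript had 12 matches, 1.985 per kilobase. The *MALAT1* window had no such repeat, and its 2 matches overlapped in 1 run of 9 capitals. Without that window *MALAT1* kept 15 matches, 1.45 per kilobase.

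With each transcript cut into 3 equal parts from its 5′ end, *MALAT1* had 5, 7 and 5 matches, and *NEAT1* 7, 30 and 7, with the repeat in the middle part. *TUG1* had 0, 2 and 8. Its first match lay at base 4404 of 7474. The unspliced *KCNQ1OT1* had 30, 82 and 172. *DANCR* had 0, 2 and 4 over its canonical transcript and 5, 3 and 11 over its longest one. In *MALAT1* 14 of the 17 matches lay before the small RNA and 3 in the part removed by the cut. The poly(A) signal AATAAA can itself be part of a match, and it was inside 10 of the 17 matches of *MALAT1*, 8 of 44 in *NEAT1*, 3 of 10 in *TUG1* and 1 of 6 in *DANCR*. The only match in the canonical *KCNQ1OT1*, at base 651 of 679, held it too. The 1.47 matches per kilobase of that transcript thus rest on 1 match with the poly(A) signal inside it.

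**Figure D3:**
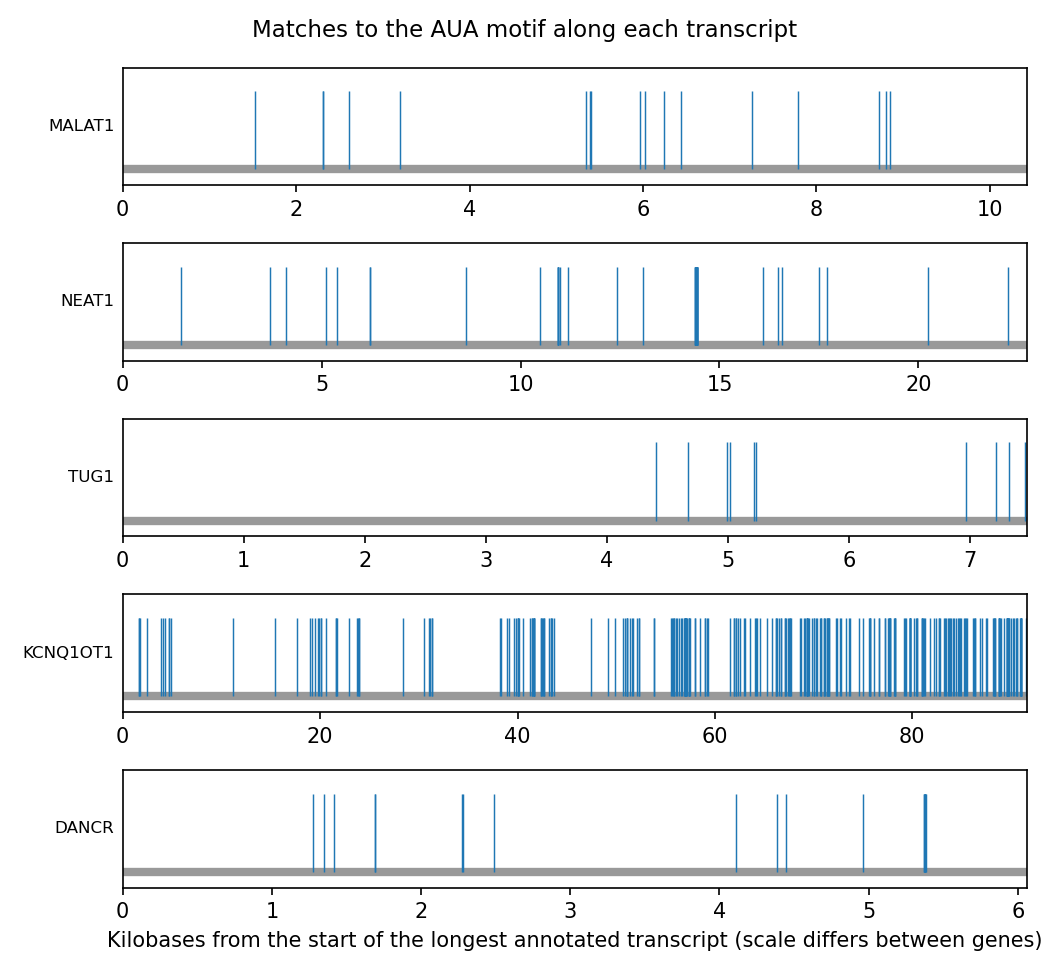
Position of each match to the AUA motif (blue lines) along the longest annotated transcript of each gene (grey bar), in kilobases from its 5′ end, with a scale that differs between genes. The matches of TUG1 begin past the middle of the transcript, those of KCNQ1OT1 become denser toward the 3′ end, and the TA repeat of NEAT1 shows as 1 dense cluster in its middle part.

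Genes that work with these RNAs were taken as fixed lists and are given per kilobase of canonical transcript. All 8 paraspeckle protein genes were listed, from 302 to 4653 with a median of 1985. NONO and SFPQ, the DBHS-family proteins that bind *NEAT1*, had 2605 and 3172, and HNRNPK, which favours the long *NEAT1* isoform, had 4653. *NEAT1* at 267 lay below all 8 over its long transcript, and at 1726 over its short one above *RBM14*, *PSPC1*, *HNRNPH3* and *DAZAP1*.

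The 8 nuclear speckle protein genes ran from 650 to 2938 with a median of 1132 per kilobase, all lower than *MALAT1*. *SRRM2* and *SON*, which encode the large proteins at the core of speckles, had 2157 and 853. The 12 genes of 3′ end processing, namely RNase P subunits, the tRNA 3′ nuclease *ELAC2* and the *MALAT1* triple-helix binder *METTL16*, ran lower, from 113 in *RPP40* to 1000.3 in *POP7* with a median of 231. *ELAC2* had 926 and *METTL16* 123.

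The 7 genes of the histone methyltransferase complexes PRC2 and G9a, with which several lncRNAs have been linked, were all listed, from 156 to 909 per kilobase with a median of 400.0. *EZH2*, the catalytic subunit of PRC2, was the highest of them. In the imprinted domain of *KCNQ1OT1*, 3 of the 4 genes on the list had a level. *PHLDA2*, a growth-restraining gene of the placenta, had 3950 per kilobase. The cell-cycle inhibitor *CDKN1C* had 20.04 and the transporter gene *SLC22A18* had 61.0 per kilobase. The mean normalized count of *CDKN1C*, 35.5, was near the lowest of all listed genes, 26.7. *KCNQ1* itself and the 5 genes of the *MEG3* domain on the list were not among the listed genes, so their levels were not analysed here.

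Of the 10 other lncRNAs on the list 8 had a level, from 11.8 to 1748 per kilobase with a median of 331. *CYTOR* had 1748 and *NORAD*, a cytoplasmic RNA that binds Pumilio proteins, 963. Both stood between *MALAT1* and *NEAT1* over its long transcript, but *NEAT1* over its short one, at 1726, stood above *NORAD*. *OIP5-AS1* had 354, *LINC-PINT* 309 and *FTX* 649 per kilobase, all above the 267 of *NEAT1* over its long transcript. *CRNDE* had 215 and *JPX* 208, next to *TUG1* at 216. *MIAT*, another nuclear lncRNA, was the lowest at 11.8.

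**Figure D4:**
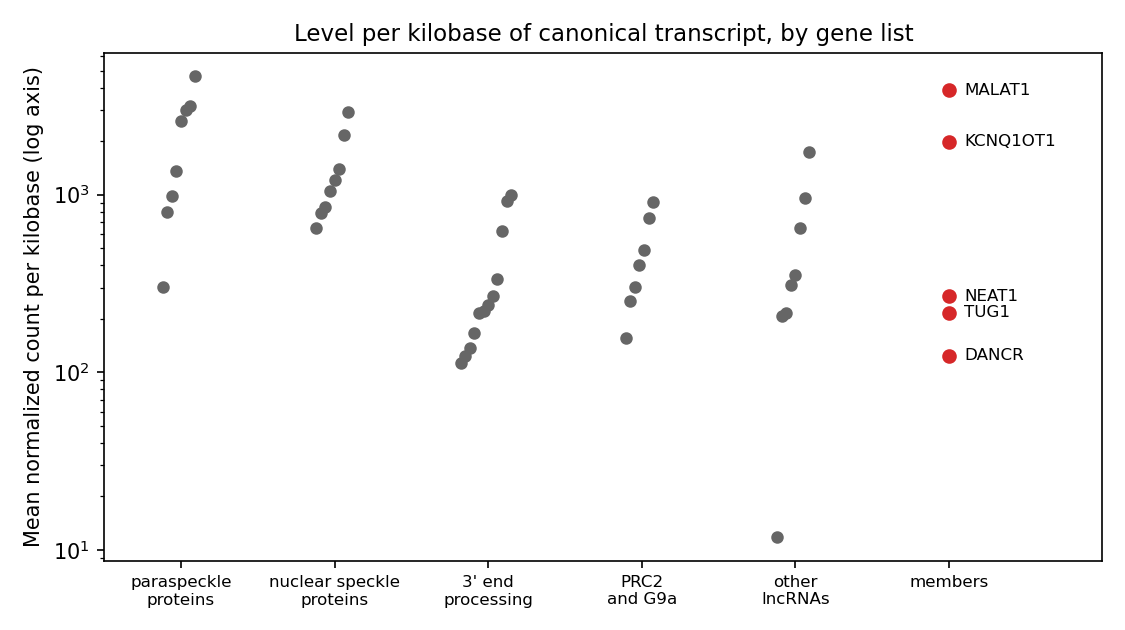
Mean normalized count per kilobase of canonical transcript on a log axis (vertical) for each gene of the lists (grey points) and for the 5 long noncoding RNAs (red points). MALAT1 lies above all 8 nuclear speckle genes and below the highest paraspeckle gene, HNRNPK at 4653, and KCNQ1OT1 is shown over its short canonical transcript. Over the 8477 bases before its small RNA, not drawn here, MALAT1 had 4764, above HNRNPK.

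Small genes lie inside some of these RNAs, and reads may have been shared between them and their hosts. *DANCR* hosts *SNORA26*, a small nucleolar RNA with a mean normalized count of 302, and *MIR4449* with 50.6, and overlaps *ERVMER34-1* on the opposite strand with 37.6. *NEAT1* overlaps the small row *RF01957*, with 72.6, and *TUG1* overlaps *RF01891* with 71.4 and *RF01892* with 38.9. Per kilobase some of these overlapping genes stood above the RNA they overlap and others did not. *SNORA26* had 2474 and *MIR4449* 766 per kilobase, against 124 for *DANCR*, and *RF01957* had 456 against 267 for *NEAT1*. *ERVMER34-1*, which is not a small gene and runs past the end of *DANCR*, had 10.4. *RF01891* and *RF01892* had 301 and 215 against 216 for *TUG1*. *MALAT1* and *KCNQ1OT1* had 0 listed genes overlapping them. Whether counting used the strand is not given in the sources used here, so antisense reads cannot be set apart.

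Levels of listed neighbouring genes are given per kilobase of canonical transcript. Below *MALAT1*, at 3870, lay the pseudogene *FAUP4* (listed as *CMB9-22P13.1*), 42058 bases away with 1145. *FAUP4* is also the upper neighbour of *NEAT1*, and the lower one is *FRMD8*, 9248 bases away with 158. *TUG1*, at 216, lies 470 bases from *MORC2* on the opposite strand, which had 192, and its upper neighbour *RP3-412A9.17* had 22.1. Around *KCNQ1OT1* stood *TSSC4* with 395 and *CDKN1C* with 20.04, and around *DANCR*, at 124, *CTD-2314I6.1* with 47.5 and *SCFD2* with 114. *NEAT1*, at 267 over its long transcript, thus stood between its neighbours, but at 1726 over its short one it stood above both.

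Most marker genes went with the label of the line, with no cut-off set for this, and 1 keratin did not. *CDH1*, *EPCAM* and *GATA3* were listed too, each below the median of all listed genes, 136.5 per kilobase. The 5 mesenchymal and invasive markers were all listed, from 742 per kilobase for *FN1* to 32189 for *VIM*, the latter above *MALAT1* at 3870. The epithelial adhesion genes *CDH1* and *EPCAM* had 6.57 and 69.3 per kilobase, while the keratin gene *KRT19* had 4925. Of the luminal and hormone receptor markers *GATA3* had 55.6 per kilobase. *ESR1*, *PGR* and *FOXA1* were not among the listed genes, so their levels were not analysed here. Of the markers of blood and vessel cells *PECAM1* had 10.1, and *PTPRC* and *CD3E* were likewise not among the listed genes.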

How the data were processed

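Total RNA from MDA-MB-231 cells was made into 6 libraries with a low-input, strand-keeping kit for total RNA that depletes ribosomal cDNA. The submitters' processing notes name Salmon, DESeq2 and hg38, without versions. The authors deposited 1 table for the series, and its signal column, the mean normalized count per gene, is the unit used here. This value is scaled for library depth, not for transcript length. The other 5 numeric columns hold the authors' own comparison of knockdown with control cells (log2 fold change, its error, statistic, p-value and adjusted p-value) and were not used. Values per library were not analysed here, so depth is unknown, and neither the knockdown of *RBMS3* nor any change between groups could be tested.

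Ensembl identifiers were looked up in GENCODE release 44 (GRCh38, the assembly that hg38 names). It contained 15829 identifiers and lacked 88. Levels were divided by the length of the Ensembl canonical transcript. Percentiles are mid-rank percentiles among listed genes. The motif search, the shared runs of at least 10 bases and the 60-base windows were read from the reference, and the functions were tested on simulated data. Genes are named if they are one of the 6, belong to a fixed list, or are the nearest listed neighbours. Outside this rule, listed genes that overlap one of the 6 and the 3 other lncRNA genes with counts above *NEAT1* were named after their values were seen. Of the neighbours 1 is not reported here, nor is 1 of the sequence windows. The genes and lists were chosen with earlier results of these data known. Analyses used Python 3.11.15 and matplotlib 3.10.9.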

Additional observations from a re-analysis of the deposited data

How the results depend on the processing

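Of 32 values recomputed under an alternative, 13 moved by nothing and 19 moved. No spread between replicates was at hand to judge the size of a move. Per kilobase, the longest transcript gave *KCNQ1OT1* 14.7 and *DANCR* 81.1. The union of exons gave *NEAT1* 267, *TUG1* 159, *KCNQ1OT1* 14.6 and *DANCR* 48.3. Lengths chosen after seeing the data gave *MALAT1* 4764, up to its small RNA, and *NEAT1* 1726, over its short transcript. Among lncRNA genes in place of all genes, the percentiles of the level were 99.8 for *MALAT1*, 99.7 for *NEAT1*, 98.7 for *TUG1*, 98.3 for *KCNQ1OT1* and 94.6 for *DANCR*. With AATAAA in place of the AUA motif, matches per kilobase were 0.958 in *MALAT1*, 0.352 in *NEAT1*, 0.669 in *TUG1* and 0.253 in *DANCR*. *KCNQ1OT1* had 1.47 with either. On the longest transcript the AUA motif had 3.10 matches per kilobase in *KCNQ1OT1* and 3.13 in *DANCR*. Each shift follows from the length, the gene set or the letters used.

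No paired analysis was possible because the table holds no value of a single library. For the same reason another normalization, a filter on low counts and leaving out each replicate were not run. The table lists no gene with a mean normalized count below 26.7, so levels under that were not analysed here.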
